A study of Ovis aries with 3 samples.

Results

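Early differentiating neurons are the cells of the embryo that have begun to build an axon, and in the day 16 and day 19 sheep embryos they were chosen by the RNA of the genes *NEFM*, *NEFL*, *STMN2* and *INA*. *NEFM*, *NEFL* and *INA* encode subunits of the neurofilaments that fill the axon, and *STMN2* encodes a stathmin that acts on microtubules in growing axons. A cell was counted as an early neuron when at least 2 of these 4 genes had 1 or more unique molecular identifiers (UMIs, each standing for 1 captured mRNA molecule) and *AHSP*, the globin chaperone of red cell precursors, had under 5 UMIs. By this rule 1315 of 31576 kept cells were chosen, 403 of 9618 in E19 HSTS, 542 of 10629 in E19 HS and 370 of 11329 in E16 HS. The name early neurons stands for the cells the rule chose, and in E16 HS their markers outside the rule were mixed. Since the rule reads these 4 genes, their levels in the cells are a description of the choice and support no result.

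Whole embryos were dissociated and profiled by droplet single-cell RNA sequencing (10x Genomics 3′ chemistry). E19 HSTS is an embryo of the Hulunbuir short-tailed sheep at day 19, a breed that carried a mutation of the *T* gene in the animals the study genotyped, E19 HS is a wild-type Hu sheep embryo of the same day, and E16 HS is Hu sheep at day 16. Values given in threes follow the order E19 HSTS, E19 HS, E16 HS. Each group holds 1 library, so breed, *T* genotype, embryo and library cannot be told apart between E19 HSTS and E19 HS, nor stage, embryo and library between E16 HS and E19 HS, and no p-values are given. The label of E16 HS names 1 embryo while the study's methods speak of 3, and how they were pooled was not settled here. Ratios are of CPM, counts per 1000000 UMIs of the summed cells. A ratio was called higher at 2 or above and lower at 0.5 or below where 20 or more UMIs were summed. Calls rest on size alone, so the interval of a called ratio can hold 1. The 95% intervals cover counting error only. The kept cells had median depths of 6312 to 7974 UMIs among the other *AHSP*-low cells and 6892 to 9902 among early neurons, and 8.19%, 3.32% and 21.6% of the early neurons held any *AHSP* UMI. Cell barcodes shared between libraries numbered 38 to 42 for each pair, and no shared barcode was an early neuron in both.

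A neuron is born when a dividing progenitor of the neural tube or of a ganglion leaves the cell cycle. Proneural transcription factors such as *NEUROG2* and *NEUROD4* and Delta ligands act at this step, progenitor factors such as *SOX2* and *PAX6* are lost with it, and the young cell then makes cytoskeletal, axon guidance and later synaptic proteins. In the trunk the first neurons to appear include motor neurons of the ventral neural tube and neurons of the sensory and autonomic ganglia.

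The cells chosen by the rule were 4.19% of kept cells in E19 HSTS (95% exact binomial interval 3.80 to 4.61), 5.10% in E19 HS (4.69 to 5.53) and 3.27% in E16 HS (2.95 to 3.61). The intervals of the 3 libraries did not overlap. Red cell precursors, here kept cells with 5 or more *AHSP* UMIs, made up 26.0%, 13.2% and 17.6% of the kept cells of the 3 libraries in the same order. With these cells left out of the denominator, the shares were 5.66% (5.14 to 6.22), 5.87% (5.40 to 6.37) and 3.96% (3.58 to 4.38), so the difference between the day 19 libraries was within the counting error and E16 HS remained lower. After every cell was thinned to 3000 UMIs, which left out 1106 to 1345 shallower cells per library, the shares of kept cells were 2.36%, 2.99% and 0.989%. With the red cell precursors left out, the thinned shares were 3.34% (2.90 to 3.83), 3.53% (3.13 to 3.96) and 1.23% (1.00 to 1.50). RNA that leaked from other cells can also give a rule gene its UMI. In the red cell precursors, which should lack these genes, 8, 8 and 10 cells met the same gene rule, which was 0.320%, 0.571% and 0.502% of them at median depths of 17925, 17742 and 14233 UMIs.

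**Figure D1:**
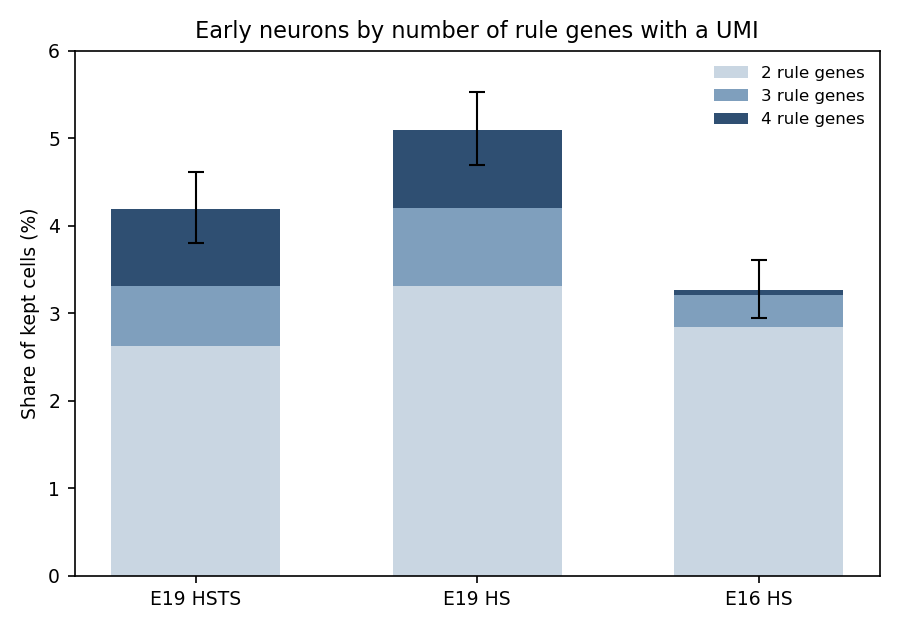
Share of kept cells (%, vertical axis) that were chosen by the rule in each library, with the bars stacked by how many of the 4 rule genes had a UMI and 95% exact binomial intervals on the total. The totals were 4.19%, 5.10% and 3.27% from left to right, and cells with all 4 rule genes were 84, 95 and 6 in number.

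By the values the rule used, the cells chosen ranged from those at its limit to those rich in all 4 genes. Exactly 2 rule genes were found in 253 of 403 early neurons of E19 HSTS (62.8%), 352 of 542 of E19 HS (64.9%) and 322 of 370 of E16 HS (87.0%). All 4 rule genes were found in 84 (20.8%), 95 (17.5%) and 6 (1.62%). Just inside the threshold, 63 (15.6%), 96 (17.7%) and 90 (24.3%) cells held 2 rule genes with 1 UMI each, and just outside it 1651, 2120 and 1849 cells held exactly 1 rule gene. The rule genes summed to a median of 7.0, 5.0 and 4.0 UMIs per early neuron, with highest cells of 512, 375 and 135. The tenth of the cells with the most of these UMIs held 55.9%, 60.0% and 37.1% of them, so pooled levels in the day 19 libraries rest mainly on few cells. By gene, in the same order, *NEFM* reached 1643, 1505 and 129 CPM, *NEFL* 298, 281 and 54.8 CPM, *STMN2* 1798, 1286 and 368 CPM and *INA* 205, 162 and 32.1 CPM. The most common pair in all 3 libraries was *NEFM* with *STMN2*, found without the other rule genes in 97, 145 and 104 cells.

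Genes outside the rule were read to check the label. Of these, *TAGLN3* was listed with the rule genes as a marker of these cells and is not an independent check. *TAGLN3*, a transgelin of young neurons, stood at 619 CPM in the early neurons of E19 HSTS, 472 CPM in E19 HS and 46.2 CPM in E16 HS, and at 23.5, 21.2 and 12.9 CPM in the other *AHSP*-low cells. The ratios were 26.3 (24.5 to 28.3), 22.3 (20.8 to 23.9) and 3.60 (3.07 to 4.19). It was detected in 57.8%, 55.2% and 26.5% of the early neurons, and in 1.92%, 1.50% and 1.40% of the red cell precursors. *GAP43*, a protein of the growth cone, had 320, 365 and 16 UMIs in the cells chosen, with ratios of 119 (85.2 to 169), 80.0 (61.2 to 106) and 3.25 (1.78 to 5.56). *DCX*, a microtubule protein of migrating neurons, had 60, 44 and 3 UMIs. The day 19 early neurons therefore carried these neuronal genes at levels far over those of the other cells, while in E16 HS *DCX* was at 3 UMIs and *GAP43* was found in 2.16% of the cells.

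Within the day 19 libraries the neuronal genes were concentrated in the cells with more rule genes. Their median depth was 6682 and 5368 UMIs with 3 or 4 rule genes and 8495 and 7582 UMIs with 2, so the cells with more rule genes were the shallower ones, while in E16 HS they were the deeper ones (11061 against 9717 UMIs). *TAGLN3* stood at 1471 CPM in the 150 E19 HSTS cells with 3 or 4 rule genes and at 219 CPM in those with 2, and at 1219 and 162 CPM in E19 HS. *GAP43* stood at 275 and 7.25 CPM in the same sets of E19 HSTS, and at 274 and 9.10 CPM in E19 HS. *TOP2A*, which untangles DNA in dividing cells, was at 238 CPM in the cells with 3 or 4 rule genes of E19 HSTS and at 1176 CPM in those with 2. In E19 HS its levels were 375 and 785 CPM. *PAX6* was found in none of the 84 E19 HSTS cells with all 4 rule genes, a count of 0 that allows up to 3.57% of cells with a UMI (3 counts over 84 cells), and in 27.7% of those with 2.

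In E16 HS the cells with 3 or 4 rule genes were 48, and their markers were mixed. *TAGLN3* was at 111 CPM, *GAP43* at 9.63 CPM and *DCX* at 1.61 CPM, while *TOP2A* stood at 1151 CPM and was found in 36 of these 48 cells, against 31.3% and 27.4% of the corresponding cells of E19 HSTS and E19 HS. *EPCAM*, an adhesion protein of epithelia, was found in 49.2% of all E16 HS cells chosen and in 23.4% of the other cells of that library. The same shares were 11.2% and 14.6% for E19 HSTS and 12.7% and 15.2% for E19 HS. *SOX2* and *EPCAM* together were found in 122 of the 370 cells chosen and in 7.28% of the other cells. Among genes with 50 or more UMIs in the E16 HS cells chosen, those with the largest ratios, named after their values were seen, were *GAL* (7.22), *PAX6* (6.06), *SCUBE2* (5.66), *FAM181B* (5.02) and *SOX2* (4.44). Under that limit of 50 UMIs, *SCG3*, a granule protein, had a ratio of 7.17 on 43 UMIs and *DCC*, a netrin receptor, 5.03 on 38 UMIs. The day 19 cells with exactly 2 rule genes shared part of this pattern, with *GAP43* in 3.95% and 4.26% of them, *TOP2A* in 63.2% and 64.2% and *SOX2* in 63.6% and 75.9%. In the same day 19 cells *SCG3* had ratios of 13.1 and 12.7 to the other cells and *TAGLN3* 9.31 and 7.63. *GAP43* stood there at 7.25 and 9.10 CPM, against 0.783 and 1.09 CPM in the other cells. Early neurons is therefore used below as the name of the cells chosen by the rule. The markers were mixed in E16 HS, where the cells are called rule-positive, and in the day 19 cells with exactly 2 rule genes.

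**Figure D2:**
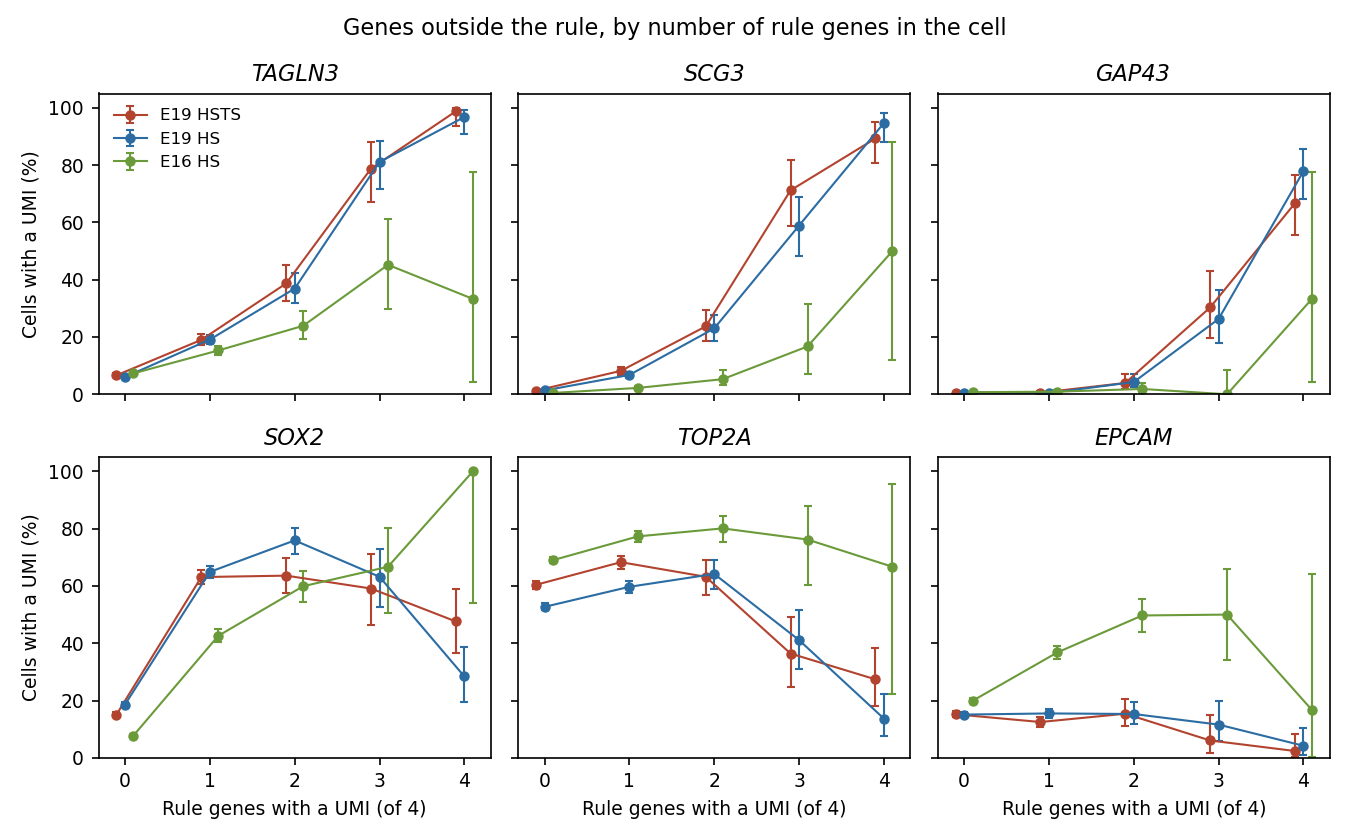
Share of *AHSP*-low cells with a UMI of each gene (%, vertical axis) by the number of rule genes in the cell (horizontal axis), per library, with 95% exact binomial intervals. In the day 19 libraries *TAGLN3* reached 98.8% and 96.8% and *TOP2A* 27.4% and 13.7% of the cells with 4 rule genes, while in the 42 E16 HS cells with 3 rule genes *TAGLN3* was found in 45.2% and *TOP2A* in 76.2%.

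Of the genes tested against the other *AHSP*-low cells of the same library, 7.39% were higher and 8.50% lower in the early neurons of E19 HSTS, 6.71% higher and 8.66% lower in E19 HS, and 5.59% higher and 6.63% lower in the rule-positive cells of E16 HS. The general neuronal list, which holds cytoskeletal, adhesion and secretory genes of neurons, had 23 of 25 genes higher in E19 HSTS with a median ratio of 11.3. In E19 HS 24 of 26 were higher (median 8.0), and in E16 HS 11 of 20 were higher and 1 lower (median 2.19). The median over all genes was 1.03, 1.02 and 1.02. *SCG3*, a granule protein of the secretory pathway, stood at 263, 240.0 and 9.99 CPM, with ratios of 42.5, 39.3 and 7.17. *STMN4* and *STMN3*, relatives of the rule gene *STMN2*, had ratios of 182 (66.5 to 693) and 62.4 (34.4 to 121) in E19 HSTS, 109 (38.4 to 424) and 44.8 (27.1 to 77.0) in E19 HS, and only 3 and 5 UMIs in E16 HS. The microtubule protein genes *MAP2* and *MAP1B* were higher in all 3 libraries, with *MAP1B* at 1330, 1111 and 493 CPM and ratios of 4.62, 4.89 and 2.02. *UCHL1*, often used as a neuronal marker, had ratios of 1.15, 1.21 and 1.02 and did not mark these cells.

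The synapse and excitability list had 11 of 12 genes higher in E19 HSTS (median 3.16), 12 of 14 in E19 HS (median 3.46) and 5 of 11 in E16 HS (median 1.62). *SYT4*, a synaptotagmin of vesicle release, had 56 and 69 UMIs in the day 19 early neurons and 2 in E16 HS. *SCN3A*, the main sodium channel of embryonic neurons, had 50, 34 and 10 UMIs, with ratios of 67.4 (34.6 to 143), 47.7 (23.0 to 108) and 4.06 (1.83 to 8.15). *RAB3A*, a small GTPase of synaptic vesicles, had ratios of 6.08 and 5.99 at day 19, which were below 2 in cells with exactly 2 rule genes (1.46 and 1.68). *CPLX1* had no UMI in these cells or in the others.

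Proneural and early postmitotic genes were also higher at day 19, in 16 of 19 genes in E19 HSTS (median 7.11) and 16 of 18 in E19 HS (median 5.38), and in 1 of 10 in E16 HS (median 1.18). *DLL3*, a Delta-like regulator of Notch, stood at 151 CPM in the early neurons of both day 19 libraries, with 9.55 and 13.5 CPM in the other cells, but in E16 HS it was at 42.1 CPM against 48.6 CPM in the others. *ONECUT1*, a homeodomain factor of newborn motor and interneurons, had 197, 236 and 9 UMIs, with day 19 ratios of 14.2 and 15.3. *NEUROD4* had 102, 107 and 5 UMIs. *ST18* and *MYT1*, zinc finger factors of neuronal differentiation, had 92, 38 and 1 UMIs (*ST18*) and 20, 26 and 1 UMIs (*MYT1*). *BTG2* and *SOX4* were not called in any library, with ratios of 0.837, 1.49 and 0.916 for *BTG2* and 1.29, 1.47 and 1.33 for *SOX4*. At least 2 genes of the proneural list were found in 84.7% and 75.8% of the day 19 cells with 3 or 4 rule genes, in 33.3% of those of E16 HS, in 12.7% to 20.7% of the other cells and in 4.71% to 6.02% of the red cell precursors.

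**Figure D3:**
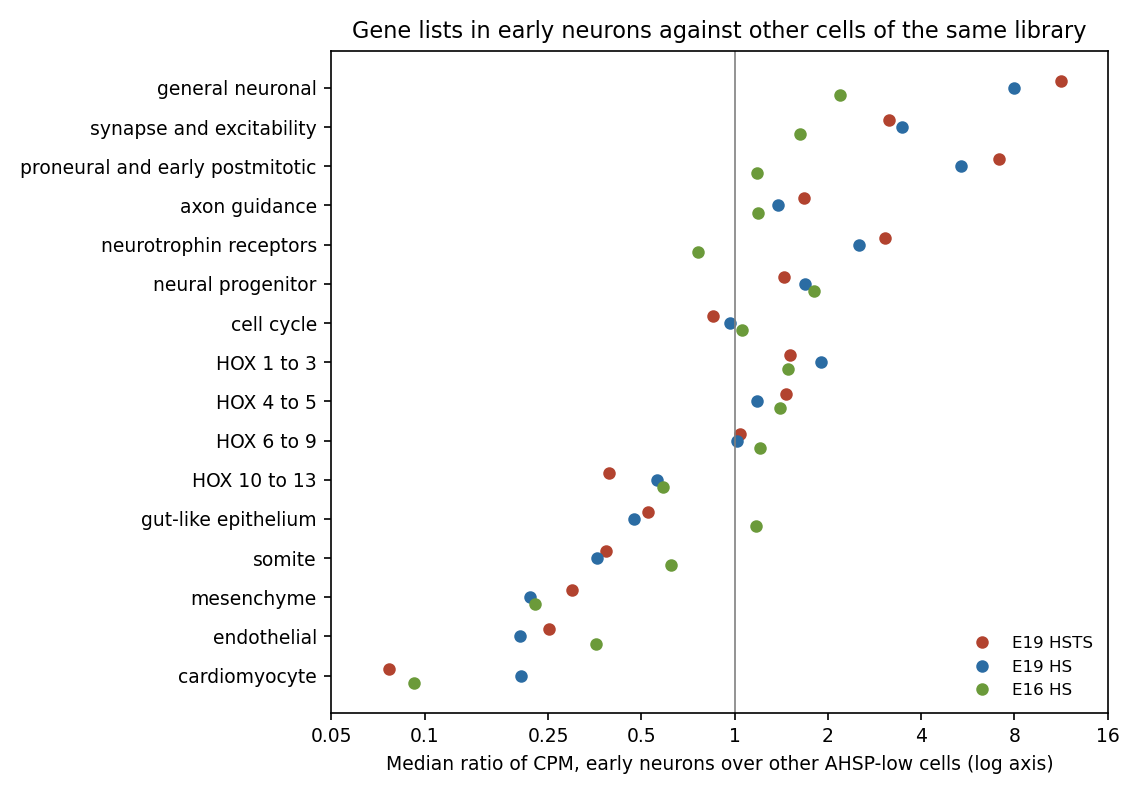
Median ratio of CPM in the cells chosen by the rule (early neurons at day 19, rule-positive cells in E16 HS) over the other *AHSP*-low cells of the same library (horizontal log axis) for the genes of each list with 20 or more UMIs, 1 point per library. The general neuronal list lay at 11.3, 8.0 and 2.19 in the libraries E19 HSTS, E19 HS, E16 HS, the cell cycle list at 0.851, 0.968 and 1.06, and the mesenchyme list at 0.298, 0.219 and 0.227.

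Progenitor genes were present beside the neuronal ones. *SOX2* was found in 59.6%, 65.3% and 61.4% of the cells chosen in the 3 libraries, and its ratios to the other cells were 1.96 (1.83 to 2.10), 2.25 (2.13 to 2.38) and 4.44 (4.14 to 4.76). *PAX6* had ratios of 1.86, 2.41 and 6.06. Over the progenitor list 2 of 11, 5 of 11 and 5 of 10 genes were higher and none lower. *NES*, an intermediate filament of progenitors, was not called in any library (1.36, 1.58 and 1.33), nor was *VIM* (1.09, 1.03 and 1.40). *SOX2* and *TAGLN3* were found together in 31.3% and 31.0% of the day 19 early neurons, and in 43.3% and 36.3% of those with 3 or 4 rule genes. *TAGLN3* without *SOX2* was found in 46.7% and 52.6% of the latter cells and in 12.5% in E16 HS. In the day 19 libraries *SOX2* and *PAX6* in cells with 3 or 4 rule genes stood at 203 and 19.0 CPM in E19 HSTS and 209 and 37.3 CPM in E19 HS.

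None of the 15 cell cycle genes measured was called in any library, with median ratios of 0.851, 0.968 and 1.06. The same genes divided the early neurons internally. At least 2 of them were found in 62.8% of the early neurons of E19 HSTS (57.9 to 67.5), 64.9% of E19 HS (60.8 to 69.0) and 95.4% of the rule-positive cells of E16 HS (92.7 to 97.3), against 80.9%, 74.2% and 88.6% of the other cells. In cells with 3 or 4 rule genes the shares were 42.0% (34.0 to 50.3), 34.7% (28.0 to 42.0) and 89.6% (77.3 to 96.5), so in the day 19 libraries alone the cells with most rule genes were poorer in cell cycle RNA than the other cells. *AURKB*, a kinase of mitosis, stood at 18.1 and 30.0 CPM in those day 19 cells and at 89.9 CPM in E16 HS. *CDKN1C*, an inhibitor of the cycle, was at 591 and 629.8 CPM there and at 196 CPM in E16 HS, but over all the cells chosen its ratio to the other cells was 0.791, 0.834 and 0.395. The 5 genes of the cycle exit list gave no gene higher in any library.

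Among 12 genes chosen by their lowest ratio over the 3 libraries, out of 3569 genes with enough UMIs, *TAGLN3* and *CRABP1* came first. *CRABP1*, a retinoic acid binding protein, was at 6426, 5547 and 2234 CPM in the cells chosen and at 492, 657 and 649.7 CPM in the other cells, with ratios of 13.1, 8.45 and 3.44. *FEZ1*, which takes part in axon growth, had ratios of 3.21, 3.01 and 3.84. Further genes of these, in order, were *CAMK2N1*, *PPP1R1A*, *LMO1*, *MAP2*, *TFAP2B*, *DPYSL5*, *DPYSL3* and *CSRNP3*, with lowest ratios from 3.15 down to 2.26. *TFAP2B*, a factor of the neural crest and of some interneurons, depended on the rule, since its E16 HS ratio of 2.59 became 0.671 in cells with 3 or 4 rule genes. In E19 HSTS and E19 HS it stood at 85.2 and 91.6 CPM in those cells.

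The axon guidance list gave 11 of 28 genes higher and 2 lower in E19 HSTS, 8 of 29 higher and 2 lower in E19 HS, and 5 of 26 higher and 3 lower in E16 HS. *ROBO3*, a guidance receptor of commissural neurons, had 98 UMIs in 24 early neurons of E19 HSTS, 43 UMIs in 17 of E19 HS and 1 UMI in E16 HS. Its ratios were 242 (107 to 676) and 302 (78.6 to 2570) at day 19, and it was found in 0.760%, 0.50% and 3.01% of the red cell precursors. *DRAXIN*, a repulsive guidance ligand, had 166, 75 and 14 UMIs with ratios of 17.6, 9.23 and 5.23. *DCC*, the netrin receptor, had 55, 38 and 38 UMIs with ratios of 11.6 (8.03 to 16.8), 6.58 (4.35 to 9.79) and 5.03 (3.42 to 7.24). The guidance genes were thus not all day 19 genes, since *DCC* and *NELL2* (ratios of 2.87, 2.64 and 2.03) were higher in all 3 libraries. *NRP1*, a semaphorin and VEGF receptor, had ratios of 0.622, 0.457 and 0.465. The neurotrophin receptor list gave 4 of 5 genes higher and 1 lower at day 19, and 1 of 5 higher and 1 lower in E16 HS. The intervals of the lower calls at day 19 held 1. *GFRA1*, a receptor of the GDNF family, had ratios of 2.41, 2.52 and 0.759, and at day 19 these were 1.09 and 1.17 in cells with exactly 2 rule genes.

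Markers of neuronal classes were sparse. Each of 7 class lists was read as at least 2 of its genes in 1 cell, and 16 early neurons of E19 HSTS (3.97%, 2.29 to 6.37), 8 of E19 HS (1.48%, 0.639 to 2.89) and 2 of E16 HS (0.541%, 0.0655 to 1.94) met any of them, against 0.968%, 0.599% and 0.747% of the other cells. The somatic motor list (*ISL1*, *MNX1*, *LHX3*, *LHX4* and *SLC18A3*) was met by 8, 5 and 1 cells, and by 1, 0 and 1 of the 6716, 8686 and 8966 other cells. The sensory ganglion list was met by 6, 2 and 0 of the cells chosen and by 18, 12 and 18 of the other cells. None of the cells chosen met the dorsal, V2 or forebrain and midbrain lists, where a count of 0 allows up to 0.744% of the early neurons of E19 HSTS with such UMIs, and most of the cells chosen therefore had no class by these markers. *ISL1*, a factor of motor and sensory neurons, was found in 8.44% and 7.56% of the day 19 early neurons and in 2.16% in E16 HS, with ratios of 7.71, 8.24 and 0.735. *POU4F1*, of sensory neurons, had 1, 3 and 0 UMIs.

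Transmitter genes were low apart from a few. *GAD2*, which makes GABA, had 24, 36 and 0 UMIs. *SLC5A7*, the choline transporter of cholinergic neurons, had 13, 30 and 1 UMIs. *SLC17A6*, the glutamate transporter of the embryonic cord, had 3, 3 and 0 UMIs, and *CHAT*, which makes acetylcholine, had 1, 0 and 0. Over the transmitter and peptide list 3 of 6, 3 of 7 and 1 of 6 genes were higher and 2, 1 and 2 lower. None of the lower calls at day 19 had an interval below 1.

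*SST*, the gene of the peptide somatostatin, was carried by few cells. In E19 HSTS 607 UMIs lay in 23 early neurons (5.71%, 3.65 to 8.44), from 1 to 260 per cell with a median of 5.0. In E19 HS 1278 UMIs lay in 31 early neurons (5.72%, 3.92 to 8.02), from 1 to 308 per cell with a median of 9.0. The share of cells with *SST* was nearly equal in both, and the 3 highest cells held 66.9% and 57.3% of the UMIs. No UMI was found in the 370 rule-positive cells of E16 HS, which allows up to 0.811% of cells with a UMI (3 counts over 370 cells), while 97 of the 8966 other cells of E16 HS (1.08%) held 1043 UMIs. In the day 19 libraries 12 and 24 early neurons had 5 or more *SST* UMIs. Of these, 12 of 12 and 23 of 24 held *TAGLN3*, 12 of 12 and 19 of 24 held *SCG3*, 6 of 12 and 8 of 24 held *ISL1*, and none held *GAD2* or *SLC5A7*. In the 131 and 167 cells with 3 or 4 rule genes and no *SST*, *ISL1* was found in 14.5% and 16.2%, *GAD2* in 7.63% and 7.19% and *SLC5A7* in 7.63% and 15.6%. Any *HOX* gene was found in 6 of the 12 and 13 of the 24 cells with 5 or more *SST* UMIs, and in 83.2% and 74.3% of those without *SST*. The sets with *SST* hold 12 and 24 cells of 1 library each, of which 1 and 5 had exactly 2 rule genes. The sets without *SST* hold only cells with 3 or 4 rule genes, and the differences were not tested.

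The *HOX* genes are expressed in order along the body axis, with the low paralogue groups reaching the hindbrain and the high groups limited to the trunk and tail, so the highest group in a cell is a rough reading of its level. A gene of groups 6 to 13 was found in 54.3% of the early neurons of E19 HSTS (49.3 to 59.3), 41.1% of E19 HS (37.0 to 45.4) and 49.2% of the rule-positive cells of E16 HS (44.0 to 54.4), and in 57.3%, 45.0% and 57.5% of the other cells. After thinning to 3000 UMIs the shares were 48.8%, 36.0% and 17.2% in the cells chosen and 48.6%, 38.1% and 42.3% in the others. Before thinning, the intervals of the day 19 early neurons overlapped those of the other cells (56.1 to 58.5 and 44.0 to 46.1), and in E16 HS they did not (56.4 to 58.5). Groups 10 to 13 were found in 2.73% (1.37 to 4.83) and 2.58% (1.42 to 4.30) of the day 19 early neurons, against 9.87% and 6.12% of the other cells, and in 10.3% against 18.1% in E16 HS. In the 150 and 190 day 19 cells with 3 or 4 rule genes, 0 and 1 held such a gene. Among 7 genes of groups 10 to 13 tested, 4, 3 and 3 were lower, 3 in each library with an interval below 1, and none higher. *HOXA11* had ratios of 0.235, 0.198 and 0.305. At the head end *HOXA2*, a gene of the hindbrain, was at 28.7, 35.5 and 15.6 CPM with ratios of 1.61, 1.79 and 1.59. Of groups 1 to 3, 1 of 8, 4 of 8 and 0 of 8 genes were higher, and 2 of the 4 in E19 HS had an interval above 1. No *HOX* gene was found in 23.3%, 32.1% and 27.6% of the cells chosen.

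**Figure D4:**
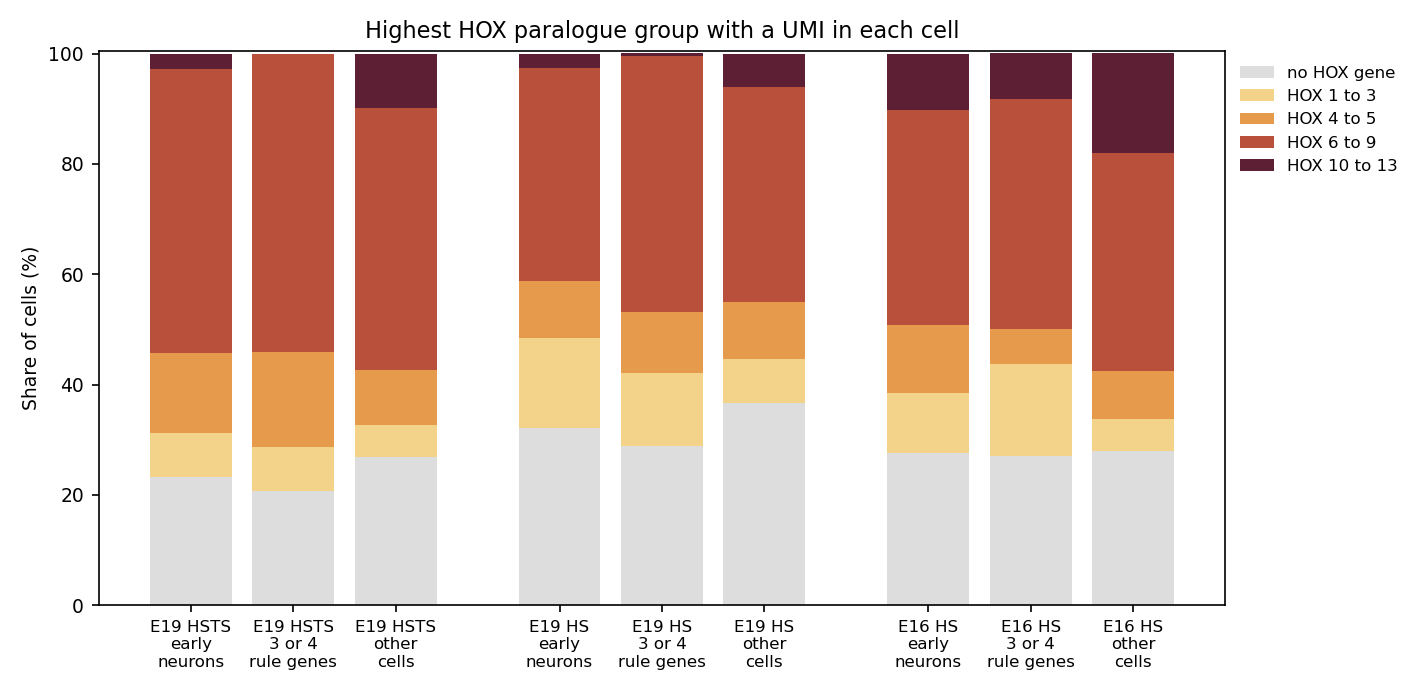
Share of cells (%, vertical axis) by the highest *HOX* paralogue group with a UMI, for the cells chosen by the rule (early neurons at day 19, rule-positive cells in E16 HS), those with 3 or 4 rule genes and the other *AHSP*-low cells of each library. Groups 10 to 13 took 2.73% and 2.58% of the day 19 early neurons and 9.87% and 6.12% of the other cells.

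Markers of other cell types were read in the same cells. All 5 mesenchyme genes were lower than in the other cells in each library, but at least 2 of them were found in 21.1%, 18.3% and 61.4% of the cells chosen, and their summed level was 255, 228 and 762 CPM against 906, 905 and 3460 CPM in the other cells. The gut-like epithelial list (*CLDN7*, *KRT7*, *EPCAM*, *CDH1* and *KRT18*) was met by 8.93%, 7.56% and 40.0% of the cells chosen and 13.6%, 13.2% and 25.1% of the others. Its summed levels were 313, 286 and 1251 CPM, against 775, 728 and 2144 CPM in the other cells. In E16 HS 0 of its 5 genes were called higher and 0 lower (median 1.17). Of the erythroid list at least 2 genes were found in 5.21%, 1.85% and 14.6% of the cells chosen. Its summed levels were 75.7, 62.2 and 104 CPM, against 154, 90.4 and 140.3 CPM in the other cells. The somite list was met by 3.47% to 4.05%, the cardiomyocyte list by 1.49% to 1.85%, the neural crest list by 0.744% to 3.24% and the endothelial list by 0% to 0.496%. Summed levels of the somite, cardiomyocyte and endothelial lists were below those of the other cells in each library. Those of the neural crest list were above them, at 54.5, 41.4 and 33.7 against 20.9, 16.7 and 14.3 CPM. Of the 3 crest genes tested, however, only 1 was higher in each library, and 2, 0 and 0 were lower (median ratios 0.436, 1.22 and 1.59). The skeletal myogenic and myeloid lists were met by none of the cells chosen. The E16 HS cells chosen thus carried more RNA of mesenchyme and epithelium than those of day 19. Their median depth was also higher, at 9902 UMIs. Both summed levels were lower than in the other E16 HS cells. The part of this RNA in the other results was not tested. Cells with the 8% highest doublet scores of each library included 47 and 50 early neurons at day 19 (11.7% and 9.23%) and 35 rule-positive cells of E16 HS (9.46%). Among cells with 3 or 4 rule genes the shares were 12.7%, 10.0% and 4.17%.

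Between the day 19 libraries 4.34% of 8532 genes were higher and 1.50% lower in the early neurons of E19 HSTS than in those of E19 HS, which is 370 and 128 genes. The median ratio over all genes was 1.14, and with median-ratio size factors the counts were 237 higher and 193 lower, so the share of higher genes among those called went from 74.3% to 55.1% with the scaling. General neuronal genes had 2 of 26 higher and none lower (median 1.17), progenitor genes 0 of 10, synapse genes 0 of 10 and cell cycle genes 0 of 15. *GAP43* differed by a ratio of 1.07 (0.916 to 1.24), *SCG3* by 1.09 (0.999 to 1.20) and *DLL3* by 1.00 (0.892 to 1.13). *TAGLN3* was at 619 against 472 CPM (1.31, 1.23 to 1.39) and *DCX* at 17.4 against 10.5 CPM (1.66, 1.11 to 2.51). None of these 5 genes reached a ratio of 2, and the intervals of *TAGLN3* and *DCX* lay above 1.

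Genes of the neuronal lists that were called were all higher in E19 HSTS except *NPY*, on a scale where the median gene was at 1.14. With size factors the genes no longer called included *RET* (1.97), *CNTN2* (1.93) and *EBF1* (1.79). Of 16 proneural genes 3 were higher, *NEUROD1* at 37 UMIs in 27 cells against 9 UMIs in 8 cells (5.00, 2.37 to 11.8), *ST18* at 92 against 38 UMIs (2.95, 2.00 to 4.42) and *EBF1* at 15 against 9 UMIs, whose interval held 1 (0.832 to 5.26). Among 22 guidance genes 4 were higher, *ROBO3* (2.77, 1.92 to 4.07), *DRAXIN* (2.69, 2.04 to 3.59), *NRP2* (2.33) and *RET* (2.23). *DRAXIN* had a ratio of 1.42 (1.10 to 1.83) in the other cells, and *ROBO3* had a ratio of 1.12 in cells with exactly 2 rule genes. From the general list *DNER* (2.68) and *CNTN2* (2.19) were higher. The 1 gene tested of the V2 interneuron list was also higher (2.13), with an interval that held 1. *HOXC5* (41 against 11 UMIs, 4.54) and *HOXC6* (65 against 30 UMIs, 2.64) were higher, with ratios of 1.94 and 1.68 in the other cells of the same libraries.

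The genes with the largest ratios between the day 19 libraries were mostly not genes of neurons, and several differed in the other cells as well. *GAPDH*, a glycolysis enzyme, had 40 UMIs in the E19 HSTS early neurons against 8749 in those of E19 HS, 179.7-fold lower, and the ratio in the other cells was 0.00337. *RPS6*, a ribosomal protein, was at 3383 and 973 CPM (3.48), with 3.37 in the other cells, and *QDPR*, of the biopterin cycle, at 66.4 and 14.5 CPM (4.57), with 4.13 in the others. *TSPO* (0.251) and *PDK1* (0.346) had ratios of 0.484 and 0.506 in the other cells. These 5 differences thus had the same direction outside the early neurons. *FGF8*, a growth factor of signalling centres, was higher in the early neurons of E19 HSTS (121 UMIs in 18 cells against 34 in 13, 4.33) and not in the other cells (0.830), and all of its E19 HSTS UMIs lay in cells with exactly 2 rule genes. *CXCL14*, a chemokine of epithelia, had 690 UMIs in 26 cells against 282 in 16 (2.98), with 689 and 281 of them in cells with exactly 2 rule genes, and its ratio was 0.911 after thinning. The other genes named by the rule were *MYL7*, *SPP2*, *APOD* and *IER2* on the higher side and *MYLPF*, *MYH3*, *TTR*, *NUDT8* and *TNNC2* on the lower side. Muscle genes among them rested on single cells, since 292 of the 295 *MYLPF* UMIs of E19 HS lay in 1 cell, all 54 *MYH3* UMIs in 1 cell and 53 of the 56 *MYL7* UMIs of E19 HSTS in 1 cell. Without the highest cell of each library *MYL7* went from 8.52 to 0.730 and *TNNC2* from 0.318 to 1.53.

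**Figure D5:**
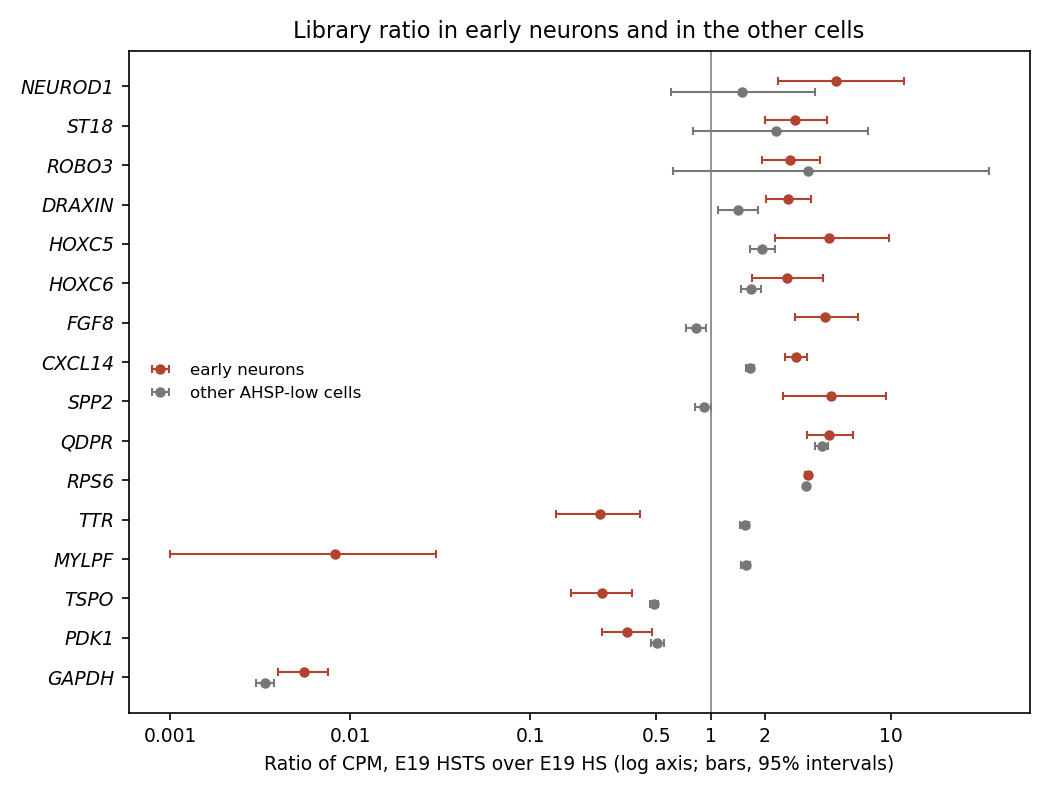
Ratio of CPM in E19 HSTS over E19 HS (horizontal log axis) in the early neurons and in the other *AHSP*-low cells, with 95% exact intervals. *GAPDH*, *RPS6*, *QDPR*, *TSPO* and *PDK1* lay on the same side of 1 in both sets, while *FGF8* was at 4.33 in the early neurons and 0.830 in the other cells.

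Between E16 HS and E19 HS, 8.15% of 8613 genes were higher and 7.07% lower in the E16 HS cells (702 and 609, median ratio 1.09). With median-ratio size factors the counts were 537 and 736, so the share of higher genes among those called went from 53.5% to 42.2%. Here the neuronal lists differed in bulk. Of 23 general neuronal genes 17 were lower and none higher in E16 HS (median 0.184), as were 7 of 9 synapse genes (median 0.287) and 12 of 14 proneural genes (median 0.152). *SCG3* was 24.0-fold lower, *GAP43* 23.4-fold and *ONECUT1* 26.9-fold, while *GAP43* in the other cells had a ratio of 1.05 (0.758 to 1.47). Over the progenitor list 3 of 10 genes were lower in E16 HS, all 3 with an interval below 1, and none higher (median 0.656). *SOX2* (0.662) and *PAX6* (0.665) were not called in the cells chosen, although in the other cells they were lower in E16 HS (0.336 and 0.264). The mix of cells also differed, since 87.0% of the E16 HS and 64.9% of the E19 HS cells chosen held exactly 2 rule genes. Within such cells *SCG3* stood at 7.61 CPM in E16 HS against 77.6 CPM in E19 HS (0.0981), *GAP43* at 2.72 against 9.10 CPM (0.298) and *ONECUT1* at 1.63 against 28.0 CPM. In the same cells *DLL3* (0.582) and *MAP1B* (0.776) were no longer called lower, from 0.279 and 0.444 in all cells chosen. With 3 or 4 rule genes *GAP43* stood at 9.63 CPM in E16 HS against 274 CPM in E19 HS. *SCG3* was found in 20.8% of these E16 HS cells against 76.8% of those of E19 HS. The part of the mix in these folds was not tested. Cell cycle genes gave 0 of 15 called (median 1.26).

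Genes higher in E16 HS included 4 of 5 mesenchyme genes (median 3.53) and 4 of 4 gut-like epithelial genes (median 4.15). *COL1A1*, a collagen of mesenchyme, was higher by 6.82 in the cells chosen and by 6.91 in the other cells, and *KRT18*, a keratin, by 4.47 and 3.16. The caudal homeobox genes *CDX2* and *CDX4* had 179 and 66 UMIs in E16 HS and 17 and 5 in E19 HS, ratios of 10.3 (6.24 to 18.0) and 12.9 (5.25 to 41.0), and were higher in the other cells too (7.31 and 6.97). *UPK3A*, *S100A5*, *TAC3*, *SPP1*, *GAL* and *ANXA1* completed the higher genes named by the rule. *GAL*, the gene of the peptide galanin, had 116 UMIs in 18 cells against 5 in 3. On the lower side *SST* was at least 437-fold lower in E16 HS with 0 against 1278 UMIs, read at a floor of 3 UMIs for the E16 HS cells, although in the other cells it was higher in E16 HS by 4.81. *SNCG*, a synuclein, had 1 against 123 UMIs, *SRRM4*, the splicing factor of neural exons, 3 against 129, and *PPP1R17*, a phosphatase inhibitor, 4 against 151 UMIs. *SYT4*, *SCG2*, *MYLPF* and *APOA2* completed this side. For *APOA2*, of the yolk sac and liver, 456 of the 479 UMIs of E19 HS lay in 1 cell, and without the highest cells its ratio went from 0.0306 to 0.594.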

How the data were processed

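Single-cell RNA sequencing of dissociated whole sheep embryos was deposited as 1 matrix of raw UMI counts per library. The authors made these counts with Cell Ranger 6.1.2 on the sheep genome they name Ovis_aries_genome_v1.0 and worked further in R 4.1.2 with Seurat 4.1.1. Their imputed and normalised values were not used. Libraries held 94754580 to 128271878 UMIs in 11114 to 12645 barcodes, and the early neurons 3449757 to 4303667 UMIs. Following the study, barcodes were kept when they held 200 to 6000 genes, 1000 to 30000 UMIs and no more than 10% mitochondrial UMIs. Doublets were not removed. Cells were not clustered, and gates on gene lists were used instead.

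The members, the gene lists and the tests were chosen with earlier results of these data known. Counts were summed over cells of 1 library, scaled to CPM, and ratios were given exact conditional intervals (Python 3.11.15, scipy 1.17.1), which was checked on simulated counts. The simulated counts were independent draws from the model behind the intervals. The check thus does not cover UMIs gathered in few cells, where the intervals are too narrow. Shares have exact Clopper-Pearson 95% intervals. Where a count was 0 the ratio was read at a floor of 3 UMIs and called only in the direction of the bound. With 1 library per group no test over samples was possible. Of 317 list genes 294 were found by symbol, with *TUBB3* and *ELAVL4* not among the symbols. Genes named outside the lists were the 12 with the largest lowest ratio over the 3 libraries at 50 or more UMIs in each, and the 8 largest ratios per direction between libraries at 50 or more UMIs in the higher one. Alternatives were stricter rules and filters, *AHSP* at 0, thinning to 3000 UMIs, other minimum counts, size factors and leaving out the 8% highest doublet scores (scanpy 1.11.5). Cells with exactly 2 rule genes, and ratios without the highest cell, were chosen after seeing the data. Some genes of the lists are not reported here.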

Additional observations from a re-analysis of the deposited data

Results flagged for a closer look

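*SST* was higher in the cells chosen than in the other *AHSP*-low cells of E19 HSTS (141) and E19 HS (113) and lower in E16 HS (0.0537, an upper bound at the floor of 3 UMIs). *SCG2*, a granule protein, went the same way, at 13.1, 62.3 and 0.162, from 60, 111 and 2 UMIs in 3, 5 and 1 cells. *MYLPF*, a muscle light chain, was lower in E19 HSTS (0.0111) and higher in E19 HS (2.10), and *MYH3*, a muscle heavy chain, was at 0.0469 and 3.03, and in E19 HS 1 cell held 292 *MYLPF* and 1 cell held 54 *MYH3* UMIs. None of these differences between libraries was tested.

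Outside the cells analysed, 32, 32 and 48 barcodes (in the order E19 HSTS, E19 HS, E16 HS) met the gene rule but not the cell filter, 6, 5 and 46 of them with over 30000 UMIs. Among the kept cells with 5 or more *AHSP* UMIs, 8, 8 and 10 had 2 or more rule genes.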

How the results depend on the processing

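Shares of cells chosen by the rule, in the order E19 HSTS, E19 HS, E16 HS, were 1.56%, 1.79% and 0.424% with 3 or more rule genes, 1.98%, 1.99% and 0.521% with 2 UMIs of each of 2 rule genes, and 2.36%, 2.99% and 0.989% after thinning. The stricter cell filter gave 5.57% in E19 HS and *AHSP* at 0 gave 2.56% in E16 HS. The numbers of genes higher than in the other cells were 2067, 1912 and 1732 at 1 UMI summed, 353, 319 and 252 at 100 UMIs and 1640, 1681 and 1595 with 3 or more rule genes, and 1134 in E16 HS after thinning. Those lower at 100 UMIs were 662, 661 and 545. Between E19 HSTS and E19 HS 237 genes were higher and 193 lower with size factors, 1356 and 624 at 1 UMI, 45 and 27 at 100 UMIs, and 234 (3 or more rule genes) and 244 (thinned) were higher. Between E16 HS and E19 HS 1328 and 1650 were called at 1 UMI and 261 and 204 at 100 UMIs, 359 were higher after thinning, and 351 lower with exactly 2 rule genes. Cells of a neuronal class were 8.0% (3 or more rule genes) and 1.58% (exactly 2) in E19 HSTS, 0% in E19 HS after thinning, and 2.08% (3 or more) and 0% (thinned) in E16 HS. Cells with *HOX* groups 6 to 13 were 48.8%, 36.0% and 17.2% after thinning and 46.8% in E19 HS with 3 or more rule genes. The direction turned for *GFRA2* (1.28 and 1.62 at day 19) and *TFAP2B* (0.671 in E16 HS) with 3 or more rule genes, for *HOXA13* in E16 HS (1.17) after thinning, for *TNNC2* between the day 19 libraries with 3 or more rule genes (2.40) and without the highest cell (1.53), for *MYL7* without the highest cell (0.730), and for *CXCL14* after thinning (0.911 at day 19, 0.890 between E16 HS and E19 HS). The other 87 of these summary values stayed within the limits of counting error or 1.5 times. For genes named in the text 842 values stayed, 360 moved and 9 reversed. The cause was not tested. No paired analysis was possible because each group has 1 library, and for the same reason no library could be left out. Depth limits genes at a few UMIs, where 20 UMIs summed leave wide intervals.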
